A study of Mus musculus with 8 samples.

Results

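The comparison described here is between cells of the 8th culture passage and the primary CD45-positive cells from which they were derived per the labels. It uses 4 of the 8 arrays of the series, chosen by their labels alone: 2 of passage-8 cells and 2 of CD45-positive cells. The primary cells were c-kit-positive, CD45-positive cells obtained by explant culture of left atrial appendage tissue and sorted after a weak digestion with 0.05% trypsin and 0.1% collagenase D. The appendages came from adult C57BL/6 mice of 8 to 12 weeks, and the passage-8 cells carry the same strain, age and tissue in their labels. The labels give no genotype, sex or treatment that sets the groups apart other than passage. They do not say whether the 2 samples of a group came from separate mice or cultures, or whether the passage-8 cells descend from 1 clone or from the samples measured as primary cells. P-values therefore measure only the spread between the samples fitted, which include the other groups of the series. The other arrays, 2 of c-kit-positive, CD45-negative primary cells sorted after a strong digestion with 0.25% trypsin and 2 of left ventricular wall from mice of 12 weeks, entered the fit and are quoted only for orientation.

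CD45 is a phosphatase on the surface of white blood cells, encoded by Ptprc, and c-kit is the receptor for stem cell factor, encoded by Kit. Macrophages are white blood cells of the tissues that engulf debris, present antigen and release chemokines and complement. Their identity depends on the transcription factor PU.1, encoded by Spi1, and on the growth factor receptor encoded by Csf1r. The heart also holds fibroblasts, which make collagen, endothelial cells, which line vessels, and mesothelial cells of the epicardium, which cover its surface.

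Values are log2 signals relative to the 75th percentile of the spots on the same array, so that 0 is a signal at that percentile, and a difference is one of relative signal rather than of RNA per cell. The 75th percentile signal was 839 and 897 on the CD45-positive arrays and 976 and 974 on the passage-8 arrays, and 55.1% to 69.9% of spots were well above background, a test that the scanner software makes for each spot. Replicates differed by an SD of 0.198 log2 units on the CD45-positive arrays and 0.236 on those of passage-8 cells. Testing was limited to genes with both arrays of 1 group, or of each group, well above background. It was called higher or lower in passage-8 cells when limma's Benjamini-Hochberg adjusted p was under 0.05 and the difference was at least 1 log2 unit. SE values and p-values come from the spread pooled over all 4 groups. Replicate spread was wider on the CD45-negative (SD 0.571) and ventricular arrays (SD 0.381), so calls also depend on arrays not compared. Where a gene was not well above background on any array of 1 group, the fold is a lower bound, set against the dimmest measurable signal or the gene's own signal, whichever was higher.

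Of 23569 genes tested, 2973 were called higher and 2574 lower in passage-8 cells, which is 12.6% and 10.9% and together 23.5%. Counts of called genes in the lists below are to be read beside these shares. The median log2 difference over all genes tested was 0.16. Large falls outnumbered large rises by the fitted difference, in which signals below background entered as read rather than as bounds. By that measure 677 genes were at least 16-fold lower against 164 at least 16-fold higher, and beyond 8 log2 units there were 159 against 6. The part of undetected signals in these counts was not tested. Of the genes tested, 585 (2.48%) were well above background on both CD45-positive arrays and neither passage-8 array, of which 502 were called lower. The reverse held for 779 genes (3.31%), of which 441 were called higher, and 233 of those were not well above background on any CD45-negative or ventricular array either. Of the 441, 367 were on neither CD45-negative array and 270 on neither ventricular array, against 502 and 437 of all 2973 higher genes. A gene detected in 1 group only passed the filter through that group, so its direction was set in advance. This also holds for the lists below, and such counts describe detection and test nothing. With the arrays scaled to their median instead, 1689 genes were higher and 2282 lower, so the share of calls that were higher went from 53.6% to 42.5%. The number of calls also depended on each array. Without CD45-positive array 1 it was 1090 higher and 1230 lower, without array 2 958 and 1185, without passage-8 array 1 1249 and 1442, and without passage-8 array 2 1185 and 1693.

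**Figure D1:**
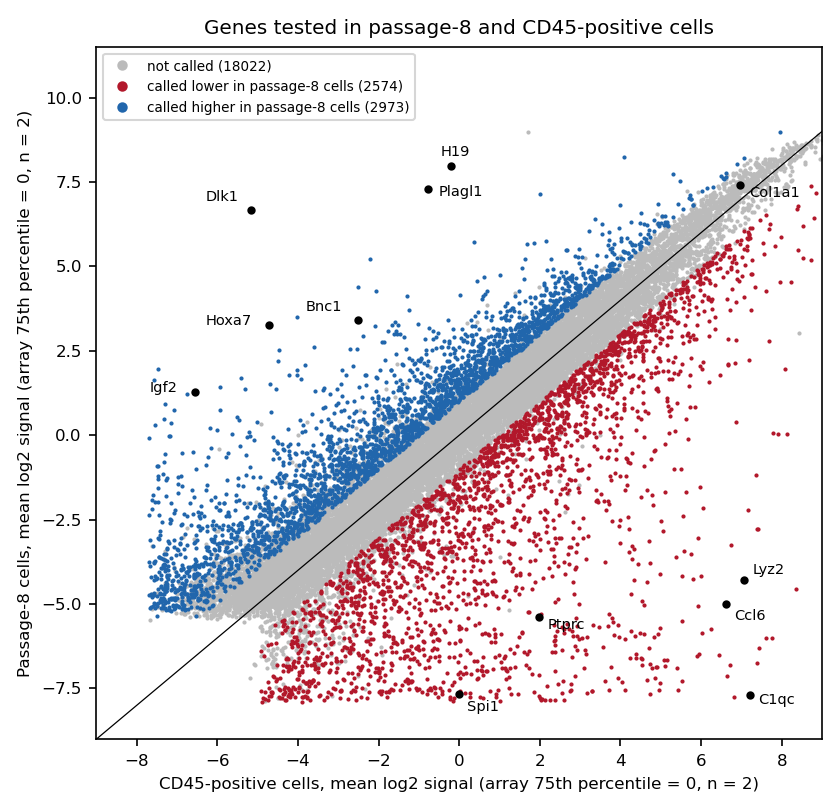
Mean log2 signal of each tested gene in passage-8 cells (y axis) against CD45-positive cells (x axis), both relative to the array's 75th percentile, n = 2 each. The 2574 genes called lower are red, the 2973 called higher blue and the others grey, the line marks equality, and black points mark named genes: H19, Plagl1 and Dlk1 stand far above the line and Ccl6, Lyz2 and C1qc far below it.

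The genes of the 2 sorted surface proteins were checked first. Ptprc had log2 signals of 2.04 and 1.93 on the CD45-positive arrays and -5.57 and -5.18 on the passage-8 arrays. The groups did not overlap, and the fall was 164-fold (limma adjusted p = 0.00167). Kit had -3.57 and -3.33 in CD45-positive cells, against -5.68 and -5.56 in passage-8 cells, a log2 difference of -2.17 (SE 1.44) that was not called (limma adjusted p = 0.316). The missing call depended on the fit: Kit was called lower, with the same difference, when only the 4 arrays compared were fitted (limma adjusted p = 0.00543), when the CD45-negative arrays were left out (0.0142) and with array weights (0.0433). Both groups lay well under the 75th percentile for Kit, and the passage-8 arrays were the lower ones.

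Fibroblast genes were measured in both groups. All 25 genes of the fibroblast and stromal list were well above background on all 4 arrays, and their summed signal was 1402 to 1455 times the array's 75th percentile signal in CD45-positive cells and 1746 to 1751 times in passage-8 cells. The fibrillar collagen Col1a1 had log2 signals of 7.08 and 6.87 in CD45-positive and 7.41 and 7.43 in passage-8 cells and was not called, and the growth factor receptor Pdgfra, at 1.91 and 2.03 against 2.68 and 2.63, was not called either. In RNA from whole populations, fewer cells of a type and less RNA of that type per cell cannot be told apart, here or in any result below. Core macrophage markers fell from a summed signal of 1421 and 1438 times the 75th percentile to 34.0 and 35.1 times. The fibroblast signal of the sorted cells and its small rise moved with every comparison below, and their part in the results was not tested.

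The 6 marker genes of the comparison set the scale of the differences. The chemokine Ccl6 had log2 signals of 6.52 and 6.70 in CD45-positive cells, against -5.39 and -4.59 in passage-8 cells, a log2 difference of -11.60 (SE 1.13, limma adjusted p = 0.00185). Lysozyme, Lyz2, an antibacterial enzyme of macrophages, had 7.14 and 7.0 against -4.82 and -3.77. Both genes were bright in the primary cells and dim after 8 passages. In the other direction, the noncoding imprinted RNA H19 went from -0.36 and -0.05 to 7.97 and 7.98 (log2 difference 8.18, SE 0.37, limma adjusted p = 0.000434). Plagl1, an imprinted zinc finger factor, went from -0.79 and -0.76 to 7.34 and 7.23. The homeobox gene Hoxa7 went from -4.65 and -4.81 to 3.25 and 3.27. The zinc finger gene Bnc1, a marker of mesothelial cells, went from -2.54 and -2.49 to 3.39 and 3.45. The 6 genes were given as markers of this comparison, so their separation is a description and tests nothing.

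**Figure D2:**
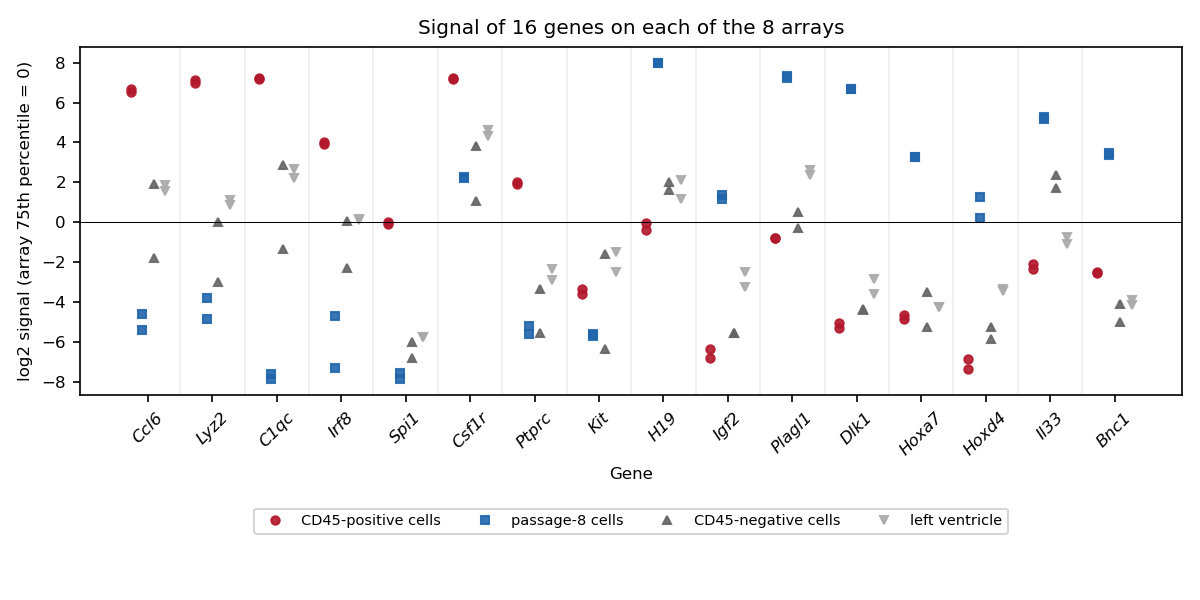
Log2 signal (array 75th percentile = 0) of 16 genes on each of the 8 arrays, with 2 points per group. Passage-8 cells (blue squares) lie below CD45-positive cells (red circles) for Ccl6, Lyz2, C1qc, Irf8, Spi1, Csf1r, Ptprc and Kit and above them for the other 8 genes, from H19 to Bnc1.

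The loss covered the signalling apparatus that white blood cells share. All 37 tested genes for leukocyte signalling and cytoskeleton were lower in passage-8 cells, with a median log2 difference of -7.68, or -7.31 with genes at their bound, against 10.9% lower and a median of 0.16 over all genes tested. Between 30 and 36 of the 37 were lower with 1 array left out. The actin-bundling gene Lcp1 had log2 signals of 5.47 and 5.69 in CD45-positive and -3.60 and -3.26 in passage-8 cells and was 516-fold lower (limma adjusted p = 0.00404). The membrane protein gene Evi2a, at 4.54 and 4.51 against -5.15 and -4.70, was 699-fold lower (limma adjusted p = 0.000529). In both genes the primary arrays lay together and far above the passage-8 arrays.

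Of 28 tested core macrophage markers, 26 were lower and 0 higher, with a median of -7.54, or -7.34 with genes at their bound, and 21 to 25 were lower with 1 array left out. Of the 30 markers on the array, 28 were well above background on both CD45-positive arrays and 11 on neither passage-8 array. Markers undetected in passage-8 cells could enter the test only through the CD45-positive arrays, so the counts describe the list and test nothing. The pore-forming protein gene Mpeg1 had log2 signals of 7.36 and 7.43 in CD45-positive cells, against -2.77 and -2.78 in passage-8 cells, and the lysosomal membrane glycoprotein gene Cd68 had 7.76 and 7.82 against 0.07 and 0.04. Cd68 was 212-fold lower but stayed well above background in passage-8 cells. The integrin gene Itgam was an exception: its brightest probe read 4.31 and 4.29 against 4.79 and 4.82 and was not called, while 1 of its 3 probes was called lower with a log2 difference of -6.17. The mean of its probes gave -2.29, so the direction for Itgam depends on the probe.

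The transcription factors behind this identity fell in part. Of 27 tested myeloid transcription factors, 14 were lower and 1 higher, with a median of -2.97. Spi1, the gene of PU.1, had log2 signals of -0.06 and 0.03 in CD45-positive cells, against -7.82 and -7.51 in passage-8 cells. Neither passage-8 array had Spi1 well above background, and the fall was at least 46.5-fold (limma adjusted p = 0.000406). Cebpa, another factor of the myeloid line, had 2.19 and 2.05 against -2.16 and -2.29 and was 20.4-fold lower (limma adjusted p = 0.000529). Irf8, a factor of monocyte development, had 3.91 and 4.03 against -7.29 and -4.67. The 2 passage-8 arrays disagreed for Irf8, and without passage-8 array 1 or 2 its log2 difference ran from -11.26 to -8.64. Not all factors of the list fell: Runx1, needed for blood formation, had 1.31 and 1.19 against 1.99 and 1.90, and Cebpb, an inflammatory factor, had 4.74 and 4.83 against 5.65 and 5.70, and neither was called, although Cebpb was called higher in the authors' value table (log2 difference 1.00 against 0.89). The 1 called higher was Nfe2, a factor of red cell and platelet precursors (4.78-fold), a call lost without CD45-positive array 2 or passage-8 array 2 (log2 difference between 1.77 and 2.74 with 1 array left out) and with normexp background correction (0.79).

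Since Spi1 was among the steep falls, the promoters of falling and rising genes were searched for the motif of PU.1. Its letters, GAGGAAGT, were searched on either strand of 300-base promoters of the RefSeq table (GRCm38.p6), from 250 bases before to 50 after the start, and the table held a promoter for 12472 of the genes tested. The motif was in 464 of these, 3.72%, and in 3.69% of all 27025 promoters of the table. Among genes called lower by 8 log2 units or more it was in 22 of 115 promoters, 19.1%. The share was 10.3% for falls of 4 to 8 units, 7.26% for 2 to 4 and 3.77% for 1 to 2, against 3.3% of the 9093 promoters of genes not called. Among genes called higher it was 2.39%, 2.69% and 2.94% for rises of 1 to 2, 2 to 4 and at least 4 units. Near the start, within 50 bases, the share was 12.2% in the steepest fallers and 1.68% over all genes tested. The gene lists differed: the motif was in 6 of 32 promoters of leukocyte signalling genes and 4 of 17 of Fc receptors and adaptors. It was in 1 of 22 of core macrophage markers, 0 of 21 of myeloid transcription factors and 2 of 12 of housekeeping genes. Base composition moved along with it: GC content was 50.3% in the promoters of the steepest fallers and 59.4% over all genes tested, with 6.8 against 19 CpG dinucleotides per promoter, and the part of base composition in the shares was not tested. A match is a stretch of letters and says nothing of binding, and the grouping by size of fall was made after the data were seen. Size was the fitted difference, also for genes that have only a bound.

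Promoter stretches of 60 bases from 6 of these genes follow, 5′ to 3′ on the strand of the gene, with the PU.1 motif or its reverse complement in capitals. They are shown because these genes fell steeply and hold the motif, on the strand of the gene in Vav1, Inpp5d and Hpgds and on the other strand in C1qc, Cd72 and Pf4.
C1qc: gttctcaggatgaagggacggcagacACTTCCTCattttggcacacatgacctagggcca
Vav1: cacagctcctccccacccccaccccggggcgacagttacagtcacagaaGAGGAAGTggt
Cd72: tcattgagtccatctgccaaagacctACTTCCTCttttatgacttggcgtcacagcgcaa
Pf4: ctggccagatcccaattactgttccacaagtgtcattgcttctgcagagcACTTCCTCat
Inpp5d: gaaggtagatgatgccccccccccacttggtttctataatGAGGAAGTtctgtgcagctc
Hpgds: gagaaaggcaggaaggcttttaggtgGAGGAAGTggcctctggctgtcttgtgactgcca

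Counted from the gene start, the first base of the motif lies at -11 in Vav1, -10 in Pf4 and -20 in Inpp5d. It lies at -49 in Cd72 and Hpgds and at -195 in C1qc. C1qc encodes a chain of the complement protein C1q, Vav1 an exchange factor of leukocyte signalling, Cd72 a surface lectin, Pf4 platelet factor 4, Inpp5d the lipid phosphatase SHIP1 and Hpgds a prostaglandin synthase. The stretches lie at chr4:136893076-136893135 (C1qc), chr17:57279040-57279099 (Vav1) and chr4:43454642-43454701 (Cd72). Those of Pf4, Inpp5d and Hpgds lie at chr5:90772375-90772434, chr1:87620252-87620311 and chr6:65144746-65144805. C1qc had log2 signals of 7.21 and 7.20 in CD45-positive cells, against -7.85 and -7.56 in passage-8 cells, at least 6929-fold lower. Vav1 had 4.96 and 4.78 against -7.80 and -6.60 and was at least 1373-fold lower. All 6 were called lower. Leaving out 1 array at a time, the fitted log2 difference ran from -12.67 to -11.46 for Vav1, from -10.70 to -9.44 for Inpp5d and from -9.36 to -7.57 for Hpgds, and the 6 stayed called.

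**Figure D3:**
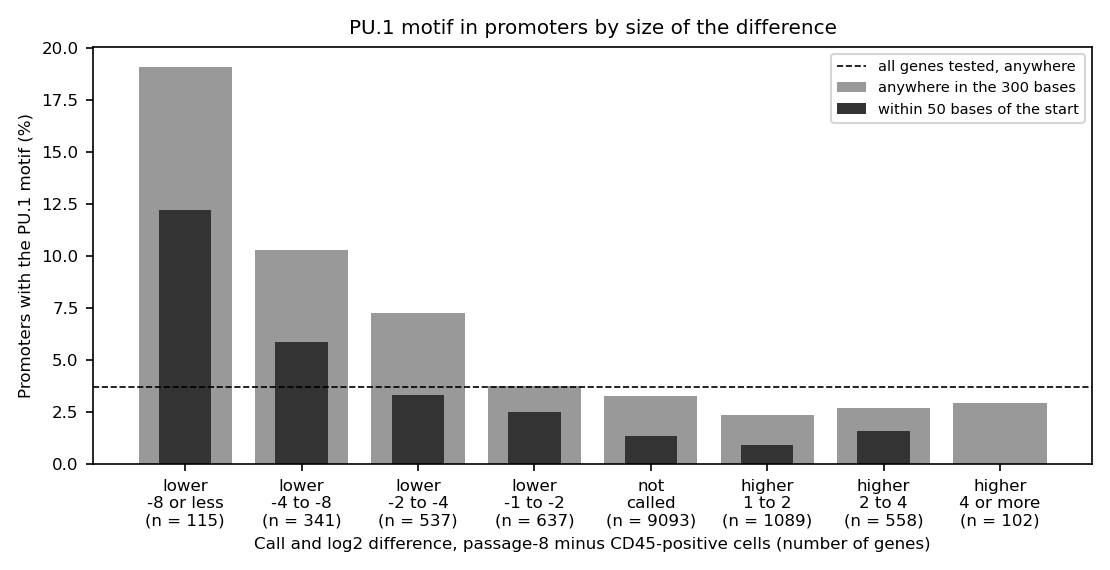
Percent of promoters that hold the PU.1 motif on either strand (y axis) for genes grouped by call and log2 difference (x axis), anywhere in the 300 bases (grey bars) or within 50 bases of the start (dark bars), with the share over all genes tested as the dashed line at 3.72%. The grey bars descend from 19.1% in the steepest fallers to 3.3% in genes not called.

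The receptors through which macrophages sense their surroundings were lower. All 10 called members of the 17 tested growth factor and cytokine receptors were lower, but only 3 to 7 of them with 1 array left out (3 and 4 without CD45-positive array 1 or 2, 5 and 7 without passage-8 array 1 or 2). Csf1r had log2 signals of 7.20 and 7.19 in CD45-positive cells, against 2.27 and 2.21 in passage-8 cells. It was 31.1-fold lower and stayed well above background (limma adjusted p = 0.00934), a call not made without CD45-positive array 1 or 2 although the log2 difference remained between -4.99 and -4.92. Of 20 tested Fc receptors and their adaptors, which bind antibodies, 16 were lower and 0 higher (14 with 1 array left out). The adaptor gene Fcer1g had 7.15 and 7.16 against -2.27 and -2.17 and was 662-fold lower (limma adjusted p = 0.00207). Of 27 tested Toll-like and pattern receptors, 20 were lower and 0 higher, and 13, 14, 16 and 16 without CD45-positive array 1, array 2, passage-8 array 1 and array 2. Tlr2, a receptor for bacterial lipopeptides, had 3.01 and 3.09 against -0.06 and -0.05 and was 8.60-fold lower (limma adjusted p = 0.00113).

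Complement genes moved in both directions. Of 18 tested, 12 were lower and 4 higher. The lower genes included the C1q chain gene C1qb, with log2 signals of 6.76 and 6.73 in CD45-positive and -3.41 and -3.12 in passage-8 cells (log2 difference -10.01, SE 0.94, limma adjusted p = 0.00167), the positive regulator properdin, Cfp, at 5.64 and 5.79 against 0.88 and 0.82, and 2 brakes on the cascade. These were the membrane inhibitor Cd59a, at 0.82 and 0.88 against -4.31 and -4.29 (35.5-fold lower, limma adjusted p = 0.000406), and the C1 inhibitor Serping1, at 3.74 and 3.74 against 0.24 and 0.15 (11.7-fold lower, limma adjusted p = 0.00101). The higher ones were the serine proteases that join C1q in the first complement component, and the central component C3. The protease gene C1s1 had 1.69 and 1.69 against 5.68 and 5.65 and was 15.7-fold higher (limma adjusted p = 0.000521). C1ra, its partner, had 2.24 and 2.30 against 5.23 and 5.21 and was 7.71-fold higher (limma adjusted p = 0.00343). C3 had 5.25 and 5.35 against 7.73 and 7.75 and was 5.42-fold higher (limma adjusted p = 0.00546). The 4th higher gene was the lectin pathway protease gene Masp1 (5.4-fold), a call lost with any 1 array left out (log2 difference 2.29 to 2.58). Leaving out single arrays gave 9 to 11 lower and 3 higher complement genes.

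Most chemokines and cytokines were lower. Of 24 tested chemokines, 17 were lower and 2 higher, and of 19 tested cytokines 14 were lower and 1 higher. Cxcl12, which attracts stem and immune cells to stroma, had log2 signals of 4.11 and 4.08 in CD45-positive and 8.25 and 8.25 in passage-8 cells and was 17.8-fold higher (limma adjusted p = 0.000493). Cxcl14 moved the other way, from 1.70 and 1.78 to -3.82 and -4.39, and was 57.6-fold lower (limma adjusted p = 0.00477). The alarmin cytokine Il33, released by damaged barrier and stromal cells, had -2.08 and -2.34 against 5.18 and 5.27 and was the 1 cytokine called higher, by 7.43 log2 units (SE 0.30, limma adjusted p = 0.000406). Il33 read 1.75 and 2.39 on the CD45-negative arrays and was below 0 in the ventricle, so its 2 highest signals were those of passage-8 cells. The counts of lower genes depended on the arrays for cytokines, with 9 and 8 lower without CD45-positive array 1 or 2, 9 without passage-8 array 1 and 11 without passage-8 array 2. For chemokines 13 to 15 were lower and 1 higher with 1 array left out.

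Phagocytic and lipid functions were lower too. Of 32 tested lysosome and endosome hydrolases, 25 were lower and 1 higher, with a median of -2.11. The bone and matrix protease Ctsk had log2 signals of 6.46 and 6.47 in CD45-positive and 1.74 and 1.84 in passage-8 cells and was 25.4-fold lower (limma adjusted p = 0.00112). Ctsd, the aspartic protease of lysosomes, had 9.30 and 9.10 against 5.85 and 5.84 and was 10.2-fold lower (limma adjusted p = 0.000926). Its signal in passage-8 cells was still far above the 75th percentile. Apolipoprotein E, Apoe, which carries lipid out of cells, had 7.71 and 7.68 against 2.86 and 2.70 and was 30.1-fold lower (limma adjusted p = 0.000529). Of 16 tested genes of antigen presentation, 13 were lower and 0 higher, with the MHC class II gene H2-Ab1 at 2.83 and 2.92 against -3.85 and -4.07, which is 114-fold lower (limma adjusted p = 0.00145). Hydrolase genes called lower numbered 16, 17, 19 and 19 without CD45-positive array 1, array 2, passage-8 array 1 and array 2, and antigen presentation genes 11 or 12. Of 22 tested genes of lipid handling, 12 were lower and 3 higher, and 9 to 11 were lower and 0 or 1 higher when any 1 array was left out.

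Imprinted genes, which are expressed from 1 parental copy and are mostly active before birth, changed unevenly. Of 25 tested, 6 were higher and 2 lower, and 17 were not called. The list had 24% called higher against 12.6% of all genes tested, and a median of 0.62 against 0.16. The share of higher calls is a description of a list chosen with results known. Dlk1, a surface protein of fetal and stromal progenitors, had log2 signals of -5.03 and -5.30 in CD45-positive cells, where it was well above background on 1 of 2 arrays, and 6.69 and 6.67 in passage-8 cells. Its log2 difference of 11.85 (SE 0.29, limma adjusted p = 0.000406) was seen with both of its probes (11.33 and 11.85). Igf2, the fetal growth factor next to H19 (its probe at chr7:149839661-149839720 and that of H19 at chr7:149761492-149761551, mm9), had -6.35 and -6.75 against 1.36 and 1.19. It was not well above background in CD45-positive cells and was at least 98.5-fold higher (limma adjusted p = 0.000406). Cdkn1c, an imprinted inhibitor of cyclin-dependent kinases, had -1.86 and -1.83 against 2.20 and 2.28 and was 16.9-fold higher (limma adjusted p = 0.000436).

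All 7 probes for H19 and all 4 for Plagl1 were called higher, with log2 differences from 1.43 to 8.97 for H19 and from 1.03 to 8.18 for Plagl1, so the direction was shared and the size depended on the probe. Plagl1 (probe at chr10:12850832-12850891, mm9) read -0.25 and 0.53 on the CD45-negative arrays and 2.35 and 2.60 in the ventricle, below both passage-8 arrays. H19 read 2.01 and 1.62, and 2.14 and 1.17, in those groups, again below the passage-8 cells. The 6th imprinted gene called higher was Ppp1r9a (9.42-fold), a neuronal actin-binding protein gene, which was not called without CD45-positive array 1 or 2 (log2 difference 3.15 to 3.32). The 2 lower genes were Ascl2, a factor of placenta and gut stem cells, at 0.75 and 0.81 against -3.18 and -3.0, and Asb4, which was at least 38.2-fold lower with 1 of its 2 probes and not called with the other. Meg3, a noncoding RNA of the same imprinted region as Dlk1, had 4.31 and 4.53 against 5.08 and 4.99 and was not called. The fetal RNA-binding protein gene Igf2bp1, which is not imprinted and binds Igf2 transcripts, had -3.98 and -4.0 against -0.18 and -0.33 and was 13.3-fold higher (limma adjusted p = 0.000521).

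Hox genes, which encode homeobox factors that mark position along the body axis in the order of their clusters, were higher in 3 clusters. Of the tested genes 6 of 8 were higher in the Hoxa cluster, 7 of 7 in the Hoxb cluster and 5 of 5 in the Hoxd cluster, and 0 were lower, while 0 of 9 Hoxc genes were above background in either group. The medians were 3.54, 3.91 and 6.56 log2 units, or 2.80, 3.42 and 4.43 with genes at their bound, against 0.16 over all genes tested. When any 1 array was left out, 4 or 5 Hoxa, 6 Hoxb and 4 or 5 Hoxd genes were higher, with 4 Hoxa and 4 Hoxd genes without CD45-positive array 1. A Hox gene detected on both arrays of passage-8 cells only had to differ to be measured, so these counts describe the clusters and test nothing.

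Hoxa3 had log2 signals of -5.38 and -5.27 in CD45-positive cells, where it was well above background on 1 of 2 arrays, and 1.37 and 1.37 in passage-8 cells (log2 difference 6.69, SE 0.73, limma adjusted p = 0.00246). Hoxb7 had -3.0 and -3.06 against 1.33 and 1.41 and was 21.1-fold higher (limma adjusted p = 0.000714). Hoxd8 had -6.12 and -5.75 against 1.41 and 1.43 and was at least 109-fold higher (limma adjusted p = 0.000744). In all 3 the groups were separated by more than 4 log2 units. Hoxd4 had -7.32 and -6.81 against 0.22 and 1.26 and was at least 68.1-fold higher, and Hoxa5 had -7.11 and -7.25 against -0.07 and 0.01 and was at least 39.9-fold higher. The 2 tested Hoxa genes that were not called were Hoxa9, at -3.94 and -4.29 against -4.65 and -3.85, and Hoxa6, at -4.32 and -5.43 against -3.41 and -2.78. Hoxa9 overlapped between the groups, and its small log2 difference of -0.14 turned to 0.04 without CD45-positive array 1 and to 0.26 without passage-8 array 1. Hoxa6, with a log2 difference of 1.78 (limma adjusted p = 0.0772), was called higher in the authors' value table (1.13), without the CD45-negative arrays and with array weights. Among Hox cofactors of the TALE homeobox class, 6 of 9 were higher, among them Meis1 (5.21-fold) and Meis2 (4.49-fold), both partners of Hox proteins on DNA, and 3 or 4 were higher with 1 array left out (3 without either CD45-positive array or passage-8 array 2).

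The Hox calls were contiguous. Runs of neighbours called in the same direction were counted along each chromosome among tested genes by probe position (mm9), and 35 runs of at least 4 higher genes and 37 of at least 4 lower genes were found. The longest higher run was that of 8 tested genes from Hoxb8 to Hoxb2 (chr11:96146576-96215181), and another held 7 from Hoxd10 to Hoxd3 (chr2:74532280-74585846). The longest lower runs had 7 genes each. One, from Ly6a to 9030619P08Rik (chr15:74825553-75261818), had a median of -3.12. The other, from Ccl5 to Wfdc18 (chr11:83339296-83524810), had a median of -10.31 and holds the chemokine genes Ccl3, Ccl4, Ccl6 and Ccl9. Other lower runs were 6 genes of the four-span membrane protein family from Ms4a4b to Ms4a6d on chromosome 19 and 6 paired receptor genes from Pirb to Lilra6 on chromosome 7. At the ends of these runs, Hoxd10, Ccl5 and 9030619P08Rik were not called without CD45-positive array 1, nor Ms4a4b without CD45-positive array 1 or 2 or passage-8 array 1, which shortens the runs. Members of the last run are near-identical copies, so signal on their probes may be shared between them.

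Mesothelial and epicardial genes moved both ways, with 10 of 25 tested higher and 5 lower. Gata6, a factor of the epicardium and other mesoderm, had log2 signals of 0.54 and 0.83 in CD45-positive and 4.34 and 4.18 in passage-8 cells and was 12.0-fold higher (limma adjusted p = 0.00220). Lrrn4, a surface protein of mesothelium, had 0.92 and 0.07 against 3.50 and 2.82 and was 6.34-fold higher (limma adjusted p = 0.00623). Krt7, a keratin of simple epithelia, had -4.69 and -4.35 against -0.18 and -0.19 and was 20.2-fold higher (limma adjusted p = 0.000821). The Wilms tumour factor Wt1 had -0.51 and -0.63 against 2.85 and 2.95 and was 11.0-fold higher (limma adjusted p = 0.0324), a call not made with any 1 array left out (log2 difference 3.40 to 3.52). Other markers of the same cells fell or were not called. Aldh1a2, which makes retinoic acid in the epicardium, fell from 1.73 and 1.80 to -3.84 and -3.62, which is 45-fold (limma adjusted p = 0.00417), and Upk3b, at 0.31 and 0.43 against 1.21 and 0.75, and Krt19, at -2.33 and -2.33 against -2.01 and -2.06, were not called. The signal of the list summed to 65.2 and 69.2 times the 75th percentile in CD45-positive cells and 130.2 and 123 times in passage-8 cells, and 23 of its 28 members were well above background on both CD45-positive arrays. The number higher was 5 without CD45-positive array 1 and 4 without any other array, and 3 were lower each time.

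**Figure D4:**
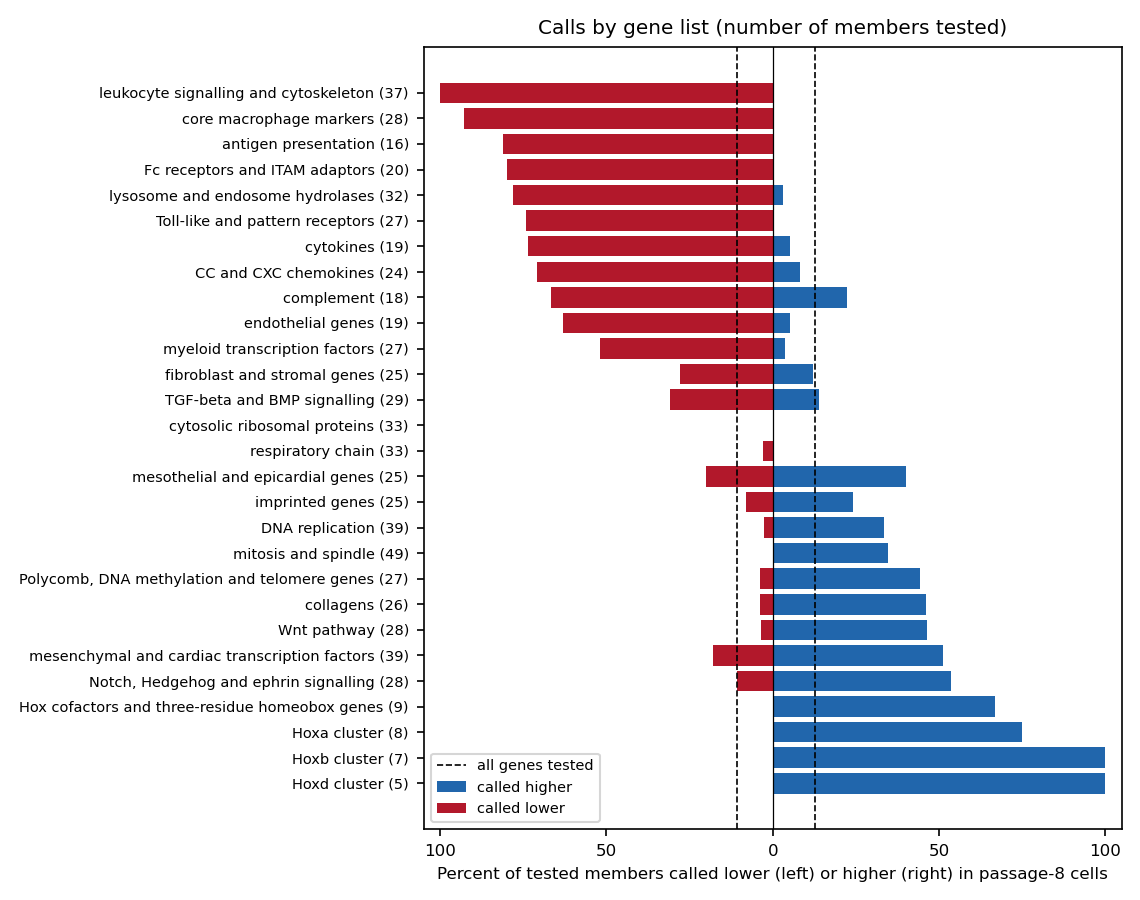
Percent of the tested members of 28 gene lists called lower (red, left) or higher (blue, right) in passage-8 cells, with the number tested in parentheses and the shares over all genes tested as dashed lines at 10.9% and 12.6%. The leukocyte signalling list reaches 100% lower and the Hoxb and Hoxd clusters 100% higher, while ribosomal and respiratory chain lists stay below both lines.

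Fibroblast and matrix genes were already high in the primary cells, and changes among them went both ways. Of the 25 fibroblast and stromal genes 3 were higher and 7 lower, with a median of 0.09 against 0.16 over all genes. Those counts are 12% and 28%, against 12.6% and 10.9% over all genes tested. Thy1, a surface antigen of fibroblasts, had log2 signals of 4.12 and 4.27 in CD45-positive and -0.87 and -0.69 in passage-8 cells and was 31.4-fold lower (limma adjusted p = 0.000579). In CD45-negative cells it read 7.30 and 6.96. Of 26 tested collagens 12 were higher and 1 lower, with a median of 1.01. The basement membrane collagen gene Col4a1 had 3.85 and 4.16 against 5.88 and 5.80 and was 3.56-fold higher (limma adjusted p = 0.00776), a call lost without CD45-positive array 1 (log2 difference 1.68 to 1.99). Without CD45-positive array 1, array 2, passage-8 array 1 and array 2, in that order, 4, 5, 6 and 7 collagens were higher. Of the fibroblast genes 1 was higher and 5 were lower each time.

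Adhesion and growth factor genes moved in both directions. Of 33 tested fibroblast and vascular growth factors 10 were higher and 6 lower, with a median of -0.24, of 6 cadherins 3 were higher and 2 lower, and of 18 keratins and epithelial junction genes 6 were higher and 4 lower, with a median of 0.17. With 1 array left out, the growth factors had 6 or 7 higher and 3 or 4 lower (3 lower without either CD45-positive array, and 6 higher without CD45-positive array 2). The cadherins had 2 higher each time and 1 lower, or 2 lower without passage-8 array 2. The keratin list had 4 higher, or 3 without CD45-positive array 2, and 1 lower, or 2 without passage-8 array 2. Genes with large rises are described next. The mesenchymal cadherin gene Cdh11 had log2 signals of -1.50 and -1.61 in CD45-positive and 2.98 and 3.01 in passage-8 cells and was 23.4-fold higher (limma adjusted p = 0.000579). Its epithelial relative Cdh3 had -2.02 and -1.70 against 2.79 and 2.74 and was 24.6-fold higher (limma adjusted p = 0.00101). Cxadr, the coxsackievirus and adenovirus receptor of cell junctions, had 0.37 and 0.35 against 5.66 and 5.80 and was 41.3-fold higher (limma adjusted p = 0.00127). These 3 genes were low or near the 75th percentile in the primary cells and clearly above it after passaging. The receptor gene Egfr had 0.43 and 0.45 against 4.58 and 4.52, 17.3-fold higher (limma adjusted p = 0.000529), and Nrg1, a ligand of Egfr's receptor family, had -1.07 and -0.99 against 3.33 and 3.26, a log2 difference of 4.32 (limma adjusted p = 0.00236). The heparin-binding growth factor gene Ptn had -4.01 and -4.02 against 3.51 and 3.53, a log2 difference of 7.53 (SE 0.94, limma adjusted p = 0.00375), and the proteoglycan gene Gpc3 had -2.61 and -2.43 against 4.51 and 4.28, a difference of 6.91 (SE 0.93, limma adjusted p = 0.00474). Rprm, a mediator of p53-dependent arrest, had -4.54 and -4.47 against 2.10 and 2.30 and was 104-fold higher (limma adjusted p = 0.000951).

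The lists of developmental signalling pathways differed in direction. Of 28 tested Wnt pathway genes 13 were higher and 1 lower, with a median of 1.73, or 1.43 with genes at their bound. They included 5 Frizzled receptors, of which Fzd6 had log2 signals of -3.50 and -3.26 in CD45-positive and -0.17 and -0.27 in passage-8 cells (8.94-fold, limma adjusted p = 0.00363), and the coreceptor Ror2, at -1.48 and -1.16 against 1.08 and 1.08 (5.27-fold, limma adjusted p = 0.00801). The call of Ror2 was lost without CD45-positive array 1 (log2 difference 2.23 to 2.56). Of 28 tested genes of the Notch, Hedgehog and ephrin pathways 15 were higher and 3 lower, with a median of 1.00. The ligand Efnb2, which acts between neighbouring cells, had -0.21 and -0.08 against 3.18 and 3.14 and was 9.84-fold higher (limma adjusted p = 0.00201), but the mean of its 2 probes, a log2 difference of 2.63, was not called. Gli2, the activating factor of Hedgehog signalling, had -7.73 and -6.83 against -1.21 and -1.43 and was at least 16.3-fold higher (limma adjusted p = 0.00213). Single arrays mattered here: 7 Wnt genes were higher without either CD45-positive array and 10 without either passage-8 array, and for the other list 8, 7, 9 and 9 were higher in the same order. Of 29 tested genes of TGF-beta and BMP signalling, 4 were higher (13.8%, against 12.6% over all genes tested) and 9 lower (31%, against 10.9%), with a median of -0.55. With 1 array left out, 4 of them were lower each time, and 2 were higher without either CD45-positive array and 4 without either passage-8 array. Gdf15, a stress-induced member of the TGF-beta family, fell from 5.00 and 5.03 to -2.57 and -2.49 (log2 difference -7.55, SE 0.41, limma adjusted p = 0.000521).

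Of 39 tested mesenchymal and cardiac transcription factors, 20 were higher and 7 lower. Irx2, a developmental homeobox factor, had log2 signals of -6.68 and -6.83 in CD45-positive cells, against 1.15 and 1.26 in passage-8 cells. It was not well above background in the primary cells and was at least 94.0-fold higher (limma adjusted p = 0.00156). Dmrt2, a developmental factor of mesoderm, had -7.94 and -6.99 against 1.96 and 1.98 and was at least 159-fold higher (limma adjusted p = 0.000406). Twist2, a factor of dermal and other mesenchyme, fell from -1.80 and -1.57 to -4.67 and -4.54, which is 7.58-fold (limma adjusted p = 0.00101). The proto-oncogene Mycn had -4.17 and -3.85 against 1.98 and 1.85 (log2 difference 5.93, SE 0.97, limma adjusted p = 0.00867), a call not made without CD45-positive array 1 or 2 (5.77 to 6.09 with 1 array left out). The list had 8 to 12 higher genes with 1 array left out, 10 and 8 without CD45-positive array 1 or 2 and 12 without either passage-8 array, and 4 or 5 lower.

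Genes of cell division were called higher with small differences. Of 49 tested genes of mitosis and the spindle 17 were higher and 0 lower, with a median of 1.15 against 0.16, and 47 of the 49 differences were above 0. Foxm1, a factor that drives mitotic genes, had log2 signals of -0.81 and -0.78 in CD45-positive and 1.23 and 1.11 in passage-8 cells and was 3.91-fold higher (limma adjusted p = 0.00891). Bub1b, a spindle checkpoint kinase gene, had -0.35 and -0.13 against 1.87 and 1.80 and was 4.21-fold higher (limma adjusted p = 0.0321). The count rested on all 4 arrays: 1 gene passed without either CD45-positive array, 2 without passage-8 array 1 and 3 without passage-8 array 2, although the median stayed between 1.13 and 1.23. Bub1b was not called with any 1 array left out (log2 difference 1.96 to 2.18). Foxm1 was not called without CD45-positive array 1, CD45-positive array 2 or passage-8 array 1, and kept its call without passage-8 array 2 (1.91 to 2.03). Of 39 DNA replication genes 13 were higher and 1 lower, and 2 or 3 higher and 0 lower with 1 array left out (2 without CD45-positive array 1 or passage-8 array 1). Of 41 promoters of mitosis and spindle genes 28 held the letters TTTGAA of the cell cycle homology region on either strand, 68.3% against 15% of the promoters of all genes tested. That share belongs to the list and does not use the calls. The letters were in 15.3% of promoters of all genes called higher and 15.5% of those called lower. A match is a stretch of letters and says nothing of binding.

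The cell cycle inhibitors of the Cdkn2a locus, known to accumulate in ageing cultures, were lower. Cdkn2b had log2 signals of 1.81 and 1.85 in CD45-positive and -1.56 and -1.45 in passage-8 cells and was 10.1-fold lower (limma adjusted p = 0.00183). Cdkn2a, its neighbour on chromosome 4, had 3.58 and 3.99 against 0.30 and 0.84 and was 9.32-fold lower (limma adjusted p = 0.0417). That call was not made with any 1 array left out, with log2 differences from -3.49 to -2.95, or with the replicate number as a block. Both genes remained well above background in passage-8 cells. Of the wider list of cyclins and inhibitors, 14.7% were higher and 23.5% lower, against 12.6% and 10.9% over all genes tested. Of 34 tested cyclins and inhibitors, 5 were higher and 8 lower, and 2 higher and 3 to 5 lower with 1 array left out (3, 4, 4 and 5 lower without CD45-positive array 1, array 2, passage-8 array 1 and array 2).

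Of 27 tested Polycomb, DNA methylation and telomere genes 12 were higher and 1 lower. Ezh2, the histone methyltransferase of Polycomb complex 2, had log2 signals of 0.41 and 0.35 in CD45-positive and 2.09 and 1.97 in passage-8 cells and was 3.13-fold higher (limma adjusted p = 0.00341). Hells, a chromatin remodeller needed for DNA methylation, had -2.10 and -2.38 against 0.18 and 0.02 and was 5.06-fold higher (limma adjusted p = 0.00601), a call lost without CD45-positive array 2 (log2 difference 2.20 to 2.48). Dnmt3l, a partner of DNA methyltransferases in germ cells, had -0.42 and -0.42 against -2.52 and -2.41 and was the 1 lower gene (4.14-fold, limma adjusted p = 0.00436). Most of these calls were lost when an array was left out, with 2 and 1 higher without CD45-positive array 1 or 2 and 3 without either passage-8 array. None of 33 cytosolic ribosomal protein genes was called in either direction (median 0.34, with 0 called in any of the alternatives tried), and 1 of 33 respiratory chain genes was lower, a call lost with any 1 array left out.

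Markers of other heart and blood cells were compared in the same way. Of 19 tested endothelial genes 12 were lower and 1 higher, with a median of -3.0, or -1.31 with genes at their bound, and their summed signal was 29.7 and 28.7 times the 75th percentile in CD45-positive cells, 22.1 and 22.3 in passage-8 cells and 233 and 266 in the ventricle. Von Willebrand factor, Vwf, had log2 signals of 1.74 and 1.89 in CD45-positive and -4.68 and -4.42 in passage-8 cells (log2 difference -6.36, SE 1.23, limma adjusted p = 0.0148), a call not made with any 1 array left out (-6.49 to -6.23) and made by 1 of its 2 probes. The junction cadherin gene Cdh5, at -2.71 and -3.14, was well above background in CD45-positive cells and not in passage-8 cells, where it was at least 6.18-fold lower (limma adjusted p = 0.00161). Pecam1, at -2.30 and -2.36 against -2.27 and -1.82, was not called. The part of a few endothelial cells among the primary cells in these falls was not tested. With 1 array left out 6 to 10 endothelial genes were lower, 6 without either CD45-positive array or passage-8 array 1 and 10 without passage-8 array 2.

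Of 12 tested cardiomyocyte genes 2 were higher (16.7%, against 12.6% over all genes tested) and 0 lower, but 9 of the 12 differences were below 0 and the median was -0.31. Tnnt2, cardiac troponin T, had log2 signals of -0.36 and -0.09 in CD45-positive and 2.41 and 2.42 in passage-8 cells (log2 difference 2.64, SE 0.53, limma adjusted p = 0.0164), against 9.25 and 9.02 in the ventricle. The call was lost with any 1 array left out (log2 difference 2.50 to 2.77). The summed signal of the cardiomyocyte list was 4.80 and 5.03 times the 75th percentile in CD45-positive cells, 8.47 and 8.97 in passage-8 cells and 6537 and 6159 in the ventricle. With 1 array left out, 0 genes of this list were higher without CD45-positive array 1, CD45-positive array 2 or passage-8 array 2, and 1 without passage-8 array 1. Without passage-8 array 2, 2 were lower. Of 9 tested neutrophil genes 5 were lower (3 with any 1 array left out), and of 6 tested lymphocyte genes 1 was lower (0 with any 1 array left out). The shares lower were 55.6% of neutrophil and 16.7% of lymphocyte genes, against 10.9% over all genes tested. The summed signal of the neutrophil list was 149.5 and 129.6 times the 75th percentile in CD45-positive cells and 136.2 and 138.2 times in passage-8 cells. These sums overlapped between the groups, although most tested members were lower. The summed signal of the lymphocyte list was 14.0 and 13.3 times the 75th percentile in CD45-positive cells, against 8.43 and 9.75 times in passage-8 cells. The part of neutrophils and lymphocytes in the results was not tested.

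Genes of chromosomes 19, 10 and 6 lay higher in passage-8 cells than the rest of the genome, and genes of chromosome 4 lower. This tally was made after the data were seen. Over 17454 genes well above background on all 4 arrays, 12% were called higher and 9.95% lower and the median difference was 0.15. Relative to that median, the median over the 587 genes of chromosome 19 was 0.39 higher, over chromosome 10 0.30 higher and over chromosome 6 0.26 higher, and over the 1103 genes of chromosome 4 it was -0.33. The other 16 chromosomes lay between -0.10 (chromosome 14) and 0.08 (chromosome 15). Calls followed: 22.8% of genes on chromosome 19 were higher and 5.28% lower, 21.3% and 9.19% on chromosome 10, 21.7% and 7.19% on chromosome 6, and 4.90% and 15.4% on chromosome 4.

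The shifts were alike on both passage-8 arrays, at 0.42 and 0.37 for chromosome 19, 0.31 and 0.28 for chromosome 10, 0.27 and 0.25 for chromosome 6 and -0.34 and -0.33 for chromosome 4. With each of these chromosomes cut into 4 segments of equal gene number by probe position (mm9), each segment kept the direction, from 0.25 to 0.56 on chromosome 19, from 0.21 to 0.34 on chromosome 10, from 0.17 to 0.33 on chromosome 6 and from -0.37 to -0.23 on chromosome 4. Segments of the other chromosomes lay between -0.17 and 0.14, except the last 2 of the X chromosome, at 0.16 and 0.27, which are as large as some segments of chromosome 6 although the X chromosome as a whole lay at 0.02. For CD45-negative cells and ventricle against the same CD45-positive arrays, the same 4 chromosomes lay between -0.03 and 0.05. Shifts of this size are below the threshold for calling a gene, so most genes of these chromosomes were not called. The arrays measured RNA, and DNA was not measured here. Among named genes, Hoxa7 and Ptn lie on chromosome 6, Plagl1 on chromosome 10, Il33 and Dmrt2 on chromosome 19 and Cdkn2a, Cdkn2b and C1qc on chromosome 4, each with a difference far larger than its chromosome's shift.

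**Figure D5:**
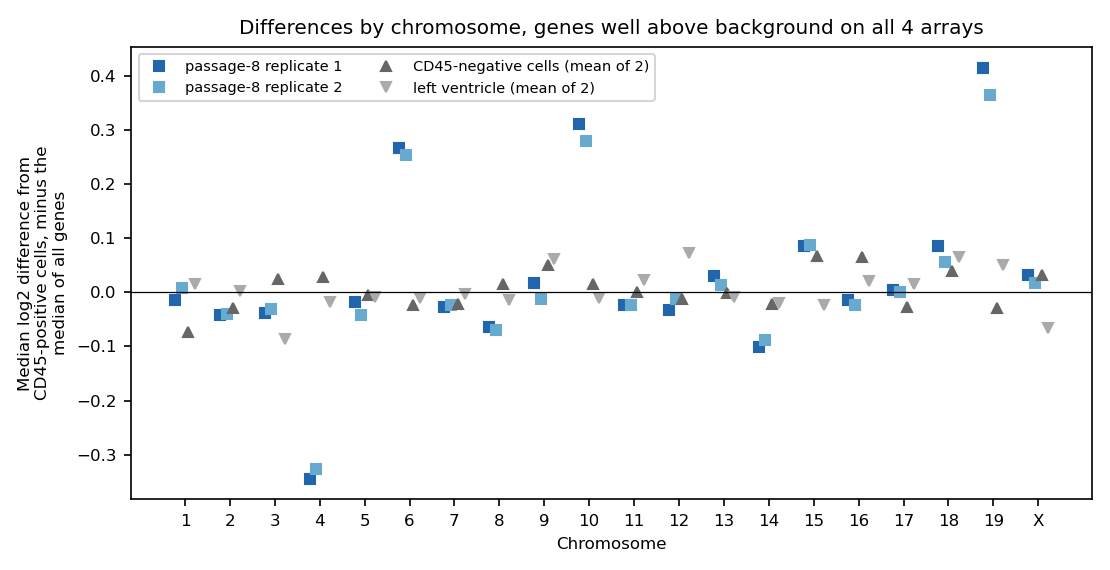
Median log2 difference from CD45-positive cells by chromosome (x axis), minus the median over all genes (y axis), for genes well above background on all 4 arrays. Both passage-8 arrays (squares) lie near 0.4 on chromosome 19 and between 0.25 and 0.31 on chromosomes 6 and 10 and near -0.33 on chromosome 4, where CD45-negative cells and ventricle (triangles) lie near 0.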

How the data were processed

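Agilent 1-colour microarrays (Cy3) measured RNA of 8 samples, 4 of which are compared here. Per the submitters' processing notes, the scans were read with Agilent Feature Extraction 10.7, and its processed signal, a background-subtracted intensity, was used as deposited. The authors' deposited value table holds log2 values of the same arrays and served as an alternative. Intensities were taken as log2, the array's 75th percentile was subtracted, control and outlier spots were left out, repeat spots were averaged and the brightest probe stood for a gene. Symbols came from the arrays and RefSeq tables. limma 3.58.1 (R 4.3.3) fitted all 4 groups on 8 arrays (4 residual degrees of freedom), with Benjamini-Hochberg adjustment over all genes tested. All arrays share 1 slide and 1 scan date. An exact two-sided permutation of 2 against 2 cannot go below p = 0.333. On simulated data for this comparison (23521 genes), 66 of 100 changes of 2 log2 units and 96 of 100 of 4 were called, with 7 unchanged genes called. The simulation changed a far smaller share of genes than the 23.5% called in the data. Its noise was Gaussian, with no background floor, so these rates need not hold for the data.

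Named were Kit, Ptprc and the 6 markers, members of the gene lists, members of described neighbour runs, and genes with the largest differences or bounds in each direction. The members and lists were chosen with earlier results of these data known. Alternatives were other scalings, background corrections, filters, probe rules, thresholds, array sets and fits, and leaving out each array. A few results are not reported here.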

Additional observations from a re-analysis of the deposited data

How the results depend on the processing

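Changing scaling, background correction, filter, probe rule or fit left the 2 counts of calls within 1.5 times of 2973 higher and 2574 lower genes, except that median scaling gave 1689 higher. A minimum of 2 log2 units gave 1133 higher and 1517 lower, and an adjusted p under 0.01 gave 1321 and 1503. With 1 array left out the counts ran from 958 to 1249 higher and from 1185 to 1693 lower. With the replicate number as a block, 2785 were higher and 2449 lower. Replicate differences of CD45-positive and passage-8 cells correlated at -0.072 over 23521 genes, and those of the other pairs of groups at -0.092 to 0.228. Such a correlation cannot show whether the samples were paired. Directions turned for some small medians and genes, and the cause was not tested: under median scaling fibroblast and stromal genes gave -0.006 and matrix enzymes -0.016, and the mean of all probes gave 0.091 for fibroblast and vascular growth factors, 0.027 for interferon-induced genes and -2.29 for Itgam. With 1 array left out the median ran from -0.07 to 0.351 for matrix enzymes and from -0.308 to 0.036 for blood stem and progenitor genes, and Hoxa9 from -0.536 to 0.264. Medians closer to 0 than their replicate spread also crossed it: pluripotency factors ran from -0.24 to 0.359 over all settings, glycolysis and hypoxia response from -0.039 to 0.201 and immediate early genes from -0.331 to 0.074. With 2 arrays a group, small differences were often not callable, and dim genes have bounds only.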

Other observations

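Further groups of genes were described in the same way. Of 35 interferon-induced genes tested, 1 was higher and 8 lower, with a median of -0.21. Of 18 pluripotency factors 3 were higher and 1 lower, and of 21 blood stem and progenitor genes 5 were higher and 6 lower. Of 31 genes of glycolysis and the hypoxia response 3 were higher and 4 lower. With any 1 array left out, 0 interferon-induced genes were higher and 4 lower, 1 or 2 blood stem and progenitor genes were higher and 4 lower, and 1 gene of glycolysis and the hypoxia response was higher and 2 or 3 lower. These shares can be set beside 12.6% higher and 10.9% lower over all genes tested.

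Of the 10 motifs searched in promoters, 2 were given with the results. The others were TTGCGNAA of C/EBP factors (0.918% of all promoters), TCACGTGA of lysosomal genes (1.12%), CCAAT, TTTGGCGC of E2F, the CArG box of SRF, GGAATG of TEAD, TGATTNAT of Hox and Pbx, and the interferon-stimulated response element, all on both strands. Over all genes tested, CCAAT was in 42.4% of promoters, TTTGGCGC in 0.978%, the CArG box in 0.0481%, GGAATG in 15% and TGATTNAT in 2.16%. Among genes lower by more than 4 log2 units, TTGCGNAA was in 0.877% and the interferon element in 8.11% of promoters, against 1.36% and 3.82% over all genes tested. Of 30 promoters of interferon-induced genes 19 held the interferon element, and of 32 promoters of DNA replication genes 6 held TTTGGCGC.

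A few sex-linked genes were looked at after their values were seen, since the labels give no sex. Xist, the RNA that silences an X chromosome in female cells, had log2 signals of 0.76 and 0.72 in CD45-positive and -4.24 and -7.58 in passage-8 cells (limma adjusted p = 0.0186). That call was lost without CD45-positive array 1 or 2 or passage-8 array 2, with log2 differences from -8.32 to -4.98. The Y-linked genes Ddx3y, at 1.16 and 1.40 against -1.49 and -1.53, and Eif2s3y, at 2.30 and 2.14 against -0.21 and -0.01, were 6.95-fold and 5.03-fold lower. Both Y-linked genes stayed well above background on both passage-8 arrays, and Xist was so on 1 of them. Uty, also on the Y chromosome, and Tsix, on the X chromosome, were tested and not called (log2 differences -1.84 and -1.79). Transcripts of both kinds were thus present on the CD45-positive arrays, and the Y-linked ones on the passage-8 arrays as well.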
